A study of Mus musculus with 12 samples.

Results

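The 6 osteocyte genes Dmp1, Mepe, Phex, Fgf23, Sost and Pdpn were followed through bulk RNA-sequencing of metaphyseal osteoblast-lineage cells. They were taken by gene name, and all 6 were among the 32288 genes of the count table. The cells came from mice with a tamoxifen-inducible Cre driven by the Osx (Sp7) promoter and an mTmG allele, which switches recombined cells from membrane tdTomato to membrane GFP, and GFP+ cells negative for CD31, CD45 and TER119 were sorted from the metaphysis. The 12 libraries formed 4 groups. The juvenile group (n = 4) came from 3-week-old mice and the adult group (n = 4) from 8-week-old mice, each library pooling femurs and tibias of 2 males, collected 2 days after the last of 3 daily tamoxifen doses. The c-Myc group (n = 2) carried LSL-tTA and Col1a1::TetO–c-Myc in addition, so that the recombined cells expressed c-Myc, and the c-Myc + R172H group (n = 2) also carried the Cre-dependent Trp53 R172H allele, a dominant-negative mutation. Both received tamoxifen at 3 weeks of age and were collected 7 days later, from males and females by the labels, and such tet-OFF mice drank doxycycline or tetracycline earlier in life to keep the transgene silent. The protocols describe their dissection at 5 weeks of age with about 5 mm of bone taken, against 2 mm in the juvenile and adult mice, so age, trim, antibiotic and tamoxifen schedule cannot be told apart from the induction in any comparison of an induced group with the juvenile or adult group. All bones were crushed and digested with collagenase after growth plate chondrocytes had been removed, and remaining bone chips were discarded. Osx marks the osteoblast lineage, and no label calls the sorted cells osteocytes.

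Osteocytes are former osteoblasts buried in the bone matrix that they made, and they regulate mineral and bone mass from there. Dmp1 and Mepe encode secreted acidic phosphoproteins of the SIBLING family, which bind mineral and collagen. Phex encodes a membrane endopeptidase. Loss of Phex or Dmp1 raises FGF23, the hormone with which bone tells the kidney to excrete phosphate. Sost encodes sclerostin, which binds the Wnt co-receptors LRP5 and LRP6 and restrains bone formation. Pdpn encodes podoplanin (E11), a mucin-like membrane glycoprotein of osteoblasts that are becoming embedded, linked through ezrin and moesin to the actin of their growing dendrites. Podoplanin appears early in this transition, Phex, Dmp1 and Mepe as the surrounding matrix mineralizes, and sclerostin and FGF23 in mature osteocytes.

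Libraries held 9066154 to 15684412 counts in genes. Levels are given as CPM, the counts of a gene per 1000000 counts of a library total that was multiplied by a TMM scaling factor, and 3 counts corresponded to 0.137–0.417 CPM. Myc was at 39.8–52.2 CPM in the juvenile libraries and at 624–748 CPM in the 4 induced libraries. Xist, which is transcribed in females, was at 4118 and 4263 counts in replicate 2 of the c-Myc and c-Myc + R172H groups and at 11 counts or fewer in the other 10 libraries. Summed CPM of 6 osteoblast markers, nearly all from Col1a1, ranged from 390979 to 569671 in the juvenile, from 227554 to 411050 in the adult, from 66852 to 89504 in the c-Myc and from 36449 to 38290 in the c-Myc + R172H libraries. All 6 chondrocyte markers were detected, and their summed CPM was 7817–22395 in the juvenile and 31487–115669 in the adult libraries, against 305–507 in the c-Myc and 147–153 in the c-Myc + R172H libraries. All 6 had fitted levels lower in juvenile than in adult cells, opposite to Dmp1, but only 1 was called, beside 3.23% of all genes called lower. With scaling by library totals alone 0 were called, beside 6.99% of all genes lower. Against juvenile cells all 6 were called lower in both induced groups, the direction of the osteocyte genes. Their median log2 fold change was −5.63 with c-Myc and −6.98 with c-Myc + R172H, beside 16% and 17.9% of all genes called lower. The part of these markers in the results was not tested. The 5 endothelial markers summed to at most 1.55 CPM and the 3 haematopoietic markers to at most 9.26 CPM, and Ptprc passed 3 counts only in the c-Myc libraries, with 5 and 7. Nearly all of the haematopoietic sum was Lyz2, at 0.338 CPM in juvenile, 6.38 in adult, 6.16 in c-Myc and 2.48 in c-Myc + R172H cells on average, lower in juvenile cells than in each of the others (edgeR adjusted p = 0.00221, 0.00038 and 0.00547). The summed levels of other lists were lower in the induced than in the juvenile libraries, as those of the osteocyte genes were. The 4 marrow stromal markers summed to 261–346 CPM in the juvenile, 323–570 in the adult, 76.2–149.5 in the c-Myc and 61.6–79.7 in the c-Myc + R172H libraries, and the 3 osteoclast markers, with Calcr undetected, to 129–151, 93.0–115, 18.04–23.3 and 19.5–21.2 CPM. Pdgfra, the one fibroblastic reticular marker of 3 that was tested, was at 269–369, 141–243, 81.1–88.1 and 79.3–83.3 CPM in the same order. The part of these lists in the results was not tested. In bulk samples, fewer cells of a type and less RNA per cell cannot be told apart.

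The members lie on 5 chromosomes (GRCm38/mm10, GENCODE annotation). Dmp1 (ENSMUSG00000029307, chr5:104202613-104214102, + strand) and Mepe (ENSMUSG00000053863, chr5:104325329-104338611, + strand) belong to 1 cluster, in which Dspp, Dmp1, Ibsp, Mepe and Spp1 follow each other on the same strand over 270.3 kb. Phex (ENSMUSG00000057457, − strand) is on the X chromosome at chrX:157162075-157415312. Pdpn (ENSMUSG00000028583, − strand) is at chr4:143267431-143299564. Fgf23 (ENSMUSG00000000182, + strand) is at chr6:127072902-127081408, and Sost (ENSMUSG00000001494, − strand) is at chr11:101962458-101967015. No exon of another annotated gene overlaps an exon of the 6, so their counts have no annotated competitor at the same bases.

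The 250 bases before the RefSeq start of the 4 members that fell in the induced cells are shown, 5′ to 3′ on the strand of the gene, to set side by side the sequences from which these genes start (GRCm38.p6). They are chr5:104202367-104202616 for Dmp1, at the start nearest to the annotated one, chr5:104325079-104325328 for Mepe, chrX:157415287-157415536 for Phex and chr4:143299565-143299814 for Pdpn. Capitals mark the 4 motifs searched on both strands, of which no matches overlap here. The motifs were CACGTG, the E-box that c-Myc with Max is known to bind, TGTGGT, a core bound by RUNX factors, TATAAA, the TATA box, and GGGCGG, the GC box bound by Sp factors.
Dmp1: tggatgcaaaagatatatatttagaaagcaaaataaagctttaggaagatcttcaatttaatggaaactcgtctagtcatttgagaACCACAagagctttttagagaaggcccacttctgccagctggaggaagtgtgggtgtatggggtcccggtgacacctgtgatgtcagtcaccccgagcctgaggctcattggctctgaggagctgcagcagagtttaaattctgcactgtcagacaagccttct
Mepe: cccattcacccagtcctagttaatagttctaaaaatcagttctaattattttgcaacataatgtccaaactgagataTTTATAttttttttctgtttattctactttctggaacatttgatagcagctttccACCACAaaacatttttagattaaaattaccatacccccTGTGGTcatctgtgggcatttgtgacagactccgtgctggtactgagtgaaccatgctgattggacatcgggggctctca
Phex: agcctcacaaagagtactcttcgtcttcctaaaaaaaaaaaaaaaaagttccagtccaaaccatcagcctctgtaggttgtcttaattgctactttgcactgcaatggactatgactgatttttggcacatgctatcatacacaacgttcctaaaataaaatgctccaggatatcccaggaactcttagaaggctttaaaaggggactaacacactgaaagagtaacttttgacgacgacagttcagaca
Pdpn: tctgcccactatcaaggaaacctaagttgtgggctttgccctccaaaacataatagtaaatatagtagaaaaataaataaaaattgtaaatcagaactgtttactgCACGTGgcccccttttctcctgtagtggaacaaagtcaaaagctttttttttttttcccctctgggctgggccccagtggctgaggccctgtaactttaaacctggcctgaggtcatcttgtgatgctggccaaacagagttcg
The E-box was in 6.0% of 32817 promoters of this length and occurred once in the Pdpn sequence, 144 bases before the start. The sequence before another RefSeq start of Dmp1, not printed, held it at 249 and 44 bases before that start. The RUNX core was in 14.0% of promoters. It occurred in Dmp1, 164 bases before the start, and in Mepe at 118 and 80 bases before it. A TATA box in reverse orientation was present in Mepe (12.4% of promoters), and the GC box (32.7% of promoters) was in none of the 4 sequences. Their GC content was 38.0% to 45.6%, below the median of 52.4% over all promoters. A match is a description of letters and no evidence of binding.

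Of the 6 genes, 4 reached counts that could be tested, Dmp1, Mepe, Phex and Pdpn. The genes that mark mature osteocytes did not. Fgf23 had 0 counts in each of the 12 libraries, which allows a level of up to 0.137 CPM in the deepest and 0.417 CPM in the shallowest library by effective size. Sost had 6, 4, 0 and 0 counts in the juvenile, 0, 5, 0 and 0 in the adult, 1 and 0 in the c-Myc and 1 and 5 in the c-Myc + R172H libraries. Sost thus passed 3 counts in 4 of 12 libraries, spread over 3 groups, with its highest level at 0.564 CPM in adult replicate 2 (95% exact Poisson interval 0.183–1.32, counting error only). Its juvenile and adult levels did not differ detectably at this depth (two-sided exact permutation p = 1, 70 arrangements, smallest p possible 0.0286), and no fold change is given for it.

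Levels of different genes were compared as CPM per kb of exon. On this scale Dmp1 was the most abundant member in every group, at a mean of 115 CPM per kb in the juvenile and 17.6 in the c-Myc + R172H cells. Its juvenile level put it at rank 117 of 15212 genes with a count. Phex came next, at 37.3 CPM per kb in the juvenile, 22.5 in the adult, 9.90 in the c-Myc and 5.62 in the c-Myc + R172H group. Mepe (6.62 CPM per kb) and Pdpn (5.61) were close to each other in the juvenile cells, at percentiles 80.8 and 77.6 of genes with a count. In the c-Myc + R172H cells they had separated, with Mepe at 1.09 and Pdpn at 0.158 CPM per kb. The 6 genes together took 0.0326–0.0505% of all counts in the juvenile, 0.0249–0.0310% in the adult, 0.0181–0.0229% in the c-Myc and 0.0122–0.0151% in the c-Myc + R172H libraries.

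Dmp1, the mineral-binding matrix phosphoprotein, was the only member called between the ages. Its level was 209.9, 287, 371 and 402 CPM in the juvenile libraries and 157, 143, 116 and 199 CPM in the adult libraries. Every juvenile library was above every adult library, the closest pair being 209.9 and 199 CPM. The share of all genes whose groups do not overlap was not counted, here or in the later comparisons. The mean was 318 ± 86.6 CPM (SD, n = 4) in the juvenile and 154 ± 34.9 CPM (n = 4) in the adult cells, a 2.06-fold difference (log2 fold change 1.04, SE 0.21, adjusted p = 0.0122, edgeR quasi-likelihood test). Of the 4 members tested, 1 was called higher in juvenile cells and none lower, where 1.89% of all 11345 genes tested were called higher and 3.23% lower. The juvenile level of Dmp1 relative to Col1a1 did not stand above the adult one: 0.544–0.710 Dmp1 counts per 1000 Col1a1 counts in the juvenile libraries fell inside the adult range of 0.311–0.890.

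In the induced cells Dmp1 was lower again. It was at 102 and 67.8 CPM in the c-Myc libraries and at 43.8 and 53.4 CPM in the c-Myc + R172H libraries. All 4 values lay below the lowest adult library, at 116 CPM. Against the juvenile cells, Dmp1 was 3.78-fold lower with c-Myc (log2 fold change −1.92, SE 0.25, adjusted p = 5.21e-05) and 6.48-fold lower with c-Myc + R172H (−2.70, SE 0.26, adjusted p = 4.33e-06, both edgeR). Between the induced groups the difference was −0.78 on the log2 scale (SE 0.27, adjusted p = 0.559) and was not called. With the replicate number as a block, the c-Myc difference from juvenile cells was −1.57 with adjusted p = 0.0527 and no longer passed the threshold.

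**Figure D1:**
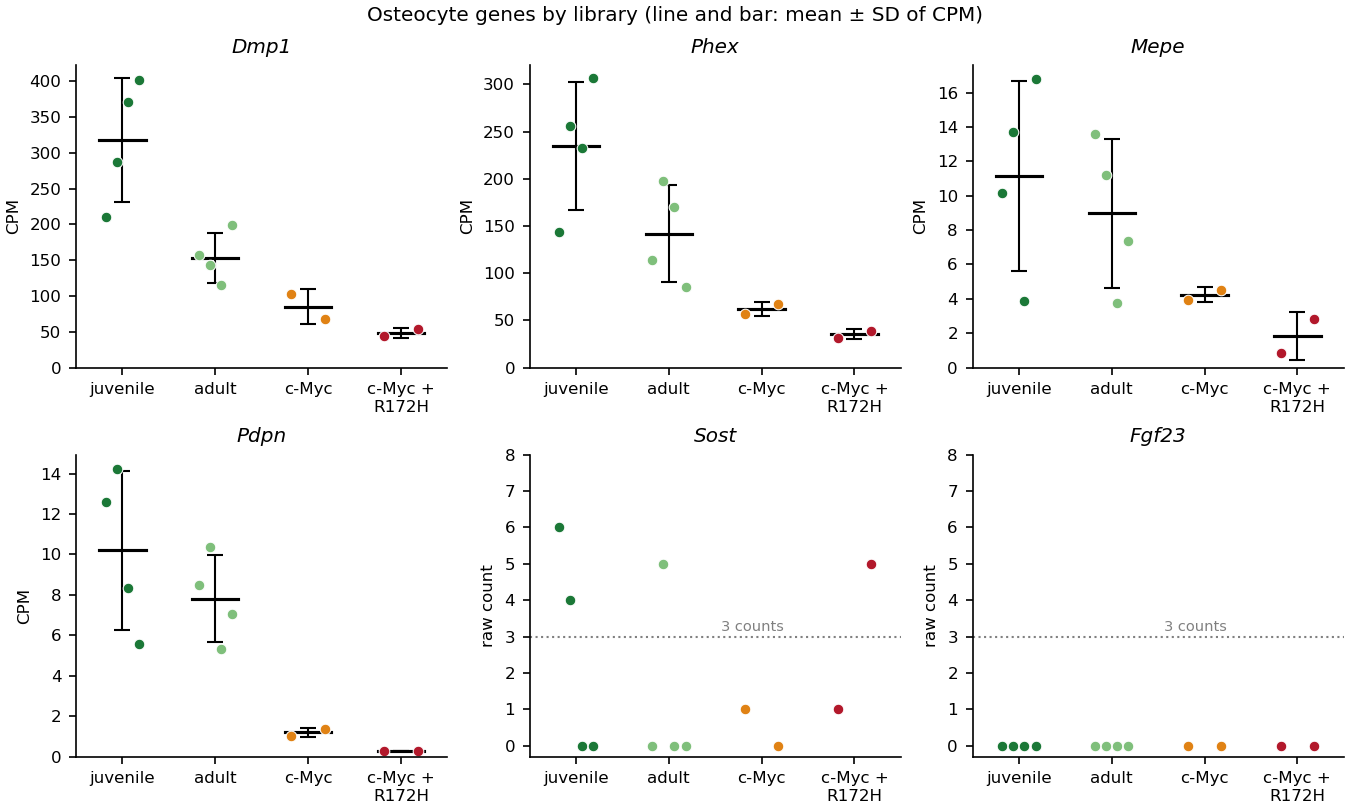
Expression of the 6 osteocyte genes in the 12 libraries by group. Points are libraries, horizontal lines and bars the mean ± SD of CPM, on linear axes from 0; for Sost and Fgf23 the raw counts are drawn without a mean, with a dotted line at 3 counts. Dmp1, Phex and Pdpn in the 4 induced libraries sit below every juvenile and adult library, Mepe overlaps, Sost reaches at most 6 counts and Fgf23 is at 0 throughout. The share of all genes with such a separation was not counted.

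Mepe, the other SIBLING member of the list and a source of mineralization-inhibiting peptides, varied widely between libraries of the juvenile, adult and c-Myc + R172H groups. Its level was 10.1, 13.7, 3.89 and 16.8 CPM in the juvenile and 13.6, 11.2, 3.75 and 7.36 CPM in the adult libraries. Replicate 3, as numbered in the sample titles, was the lowest of its group at both ages, with 28 and 29 counts. The 2 ages overlapped almost completely (log2 fold change 0.30, SE 0.43, adjusted p = 0.773). Mepe was at 3.93 and 4.54 CPM in the c-Myc libraries, inside the juvenile range. It was called lower than in the juvenile cells (2.68-fold, log2 fold change −1.42, SE 0.54, adjusted p = 0.0403), but 8 of 19 alternative analyses lost the call, and leaving out any one of c-Myc replicate 1, c-Myc replicate 2 or juvenile replicates 1, 2 and 4 gave adjusted p = 0.063–0.194. Scaling by library totals alone moved the difference to −0.59 (adjusted p = 0.351). In the c-Myc + R172H libraries, Mepe was at 0.824 and 2.83 CPM (18 and 57 counts), below all juvenile libraries. That difference was 6.09-fold (log2 fold change −2.61, SE 0.59, adjusted p = 0.00219) and passed the threshold in all 19 alternatives. Its size rested on 2 unequal libraries: without c-Myc + R172H replicate 1 the log2 fold change was −1.99 (adjusted p = 0.0283), and without replicate 2 it was −3.77 (adjusted p = 0.0017).

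Phex, the endopeptidase mutated in X-linked hypophosphataemia, was at 144, 256, 233 and 306 CPM in the juvenile and at 114, 198, 170 and 85.3 CPM in the adult libraries. The mean was 235 ± 68.0 CPM in juvenile and 142 ± 51.3 CPM in adult cells (SD, n = 4 each). The lowest juvenile library lay among the adult ones, and the difference of 0.72 on the log2 scale (SE 0.31) was not called (adjusted p = 0.24, edgeR). In the induced cells Phex stood at 57.1 and 67.5 CPM with c-Myc and at 31.6 and 39.1 CPM with c-Myc + R172H, and all 4 values were below the lowest adult library. Phex was 3.82-fold lower than in juvenile cells with c-Myc (log2 fold change −1.93, SE 0.24, adjusted p = 3.61e-05) and 6.58-fold lower with c-Myc + R172H (−2.72, SE 0.26, adjusted p = 2.82e-06). Both calls held in 19 of 19 alternatives. Phex is X-linked and replicate 2 of each induced group carried Xist RNA; replicate 2 was the higher one for Phex in both groups, by 67.5 against 57.1 CPM and 39.1 against 31.6 CPM, and without both replicates Phex was still called lower than in juvenile cells, by −2.07 on the log2 scale with c-Myc (adjusted p = 0.0052) and −2.92 with c-Myc + R172H (adjusted p = 0.00114). That alternative was chosen after seeing the data, and it assumes that the lone library left in each induced group varies like the juvenile ones.

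Pdpn, the membrane glycoprotein of the embedding osteoblast, showed the largest change among the 4. It was at 12.6, 14.2, 8.34 and 5.59 CPM in the juvenile and at 8.51, 10.4, 5.30 and 7.04 CPM in the adult libraries. The ages overlapped (log2 fold change 0.38, SE 0.31, adjusted p = 0.567). In the c-Myc libraries Pdpn was at 1.05 and 1.36 CPM, from 23 and 24 counts. In the c-Myc + R172H libraries it was at 0.275 and 0.298 CPM, from 6 counts each (95% exact Poisson intervals 0.101–0.598 and 0.109–0.648 CPM, counting error only). All 4 induced libraries were below the lowest library of either age, at 5.30 CPM. The c-Myc + R172H values lay below the c-Myc values, but that difference was not called (log2 fold change −2.01, SE 0.60, adjusted p = 0.314). Against juvenile cells, Pdpn was 8.63-fold lower with c-Myc (log2 fold change −3.11, SE 0.46, adjusted p = 0.000102) and 34.7-fold lower with c-Myc + R172H (−5.12, SE 0.55, adjusted p = 6.03e-06). Both differences were past the threshold in 18 of 18 alternatives that could be fitted.

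Across these genes, all 4 tested members were called lower in c-Myc than in juvenile cells and none higher, where 16% of the 12588 genes tested were called lower and 18.4% higher. The median log2 fold change of the 4 was −1.93, beside 0.04 over all genes tested. In c-Myc + R172H against juvenile cells, the 4 were again called lower and none higher, beside 17.9% of genes lower and 19.6% higher, with a median of −2.71 against 0.08. Both comparisons use the same 4 juvenile libraries. Scaling by library totals alone, which moved the median over all genes to 0.87 for c-Myc and 1.12 for c-Myc + R172H, gave −1.04 and −1.63 for Dmp1, −1.08 and −1.65 for Phex and −2.31 and −4.12 for Pdpn, all still called, and −1.57 for Mepe with c-Myc + R172H (adjusted p = 0.0269). Between c-Myc + R172H and c-Myc none of the 4 was called, where 0.461% of genes were called lower and 0.00794% higher. Before adjustment over all genes, the edgeR p was 0.0138 for Dmp1, 0.0115 for Phex, 0.00561 for Pdpn and 0.0815 for Mepe. The log2 differences were −0.78 (SE 0.27), −0.79 (SE 0.26), −2.01 (SE 0.60) and −1.18 (SE 0.62) in the same order. Some fits did call this step, Phex and Pdpn when only the 2 induced groups were fitted (adjusted p = 0.000273 and 0.0406) and Dmp1 and Phex with no filter on low counts (adjusted p = 7.11e-06 and 1.86e-05). These fits also called more of all genes. The shares were 3.62% lower and 1.55% higher with only the 2 groups, and 1.09% lower and 0.0736% higher with no filter.

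**Figure D2:**
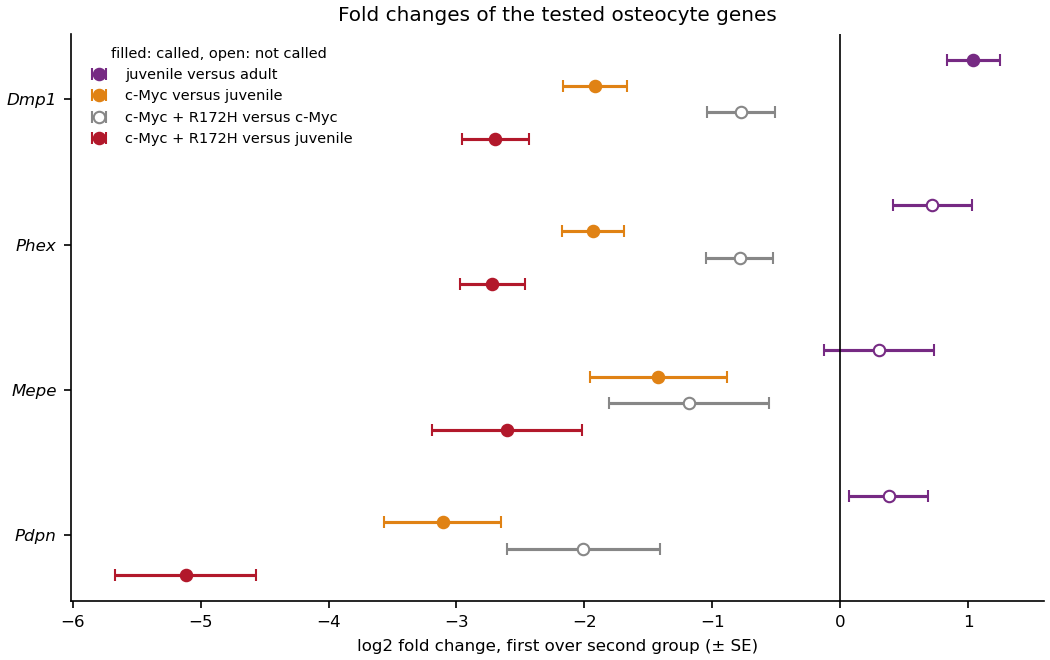
Log2 fold change with its standard error for the 4 tested genes in the 4 comparisons (x axis, first named group over second; y axis, gene). Filled points passed the threshold and open points did not. Dmp1 is the one gene called between the ages, all 4 are called lower in both induced groups against juvenile cells, from −1.42 for Mepe to −5.12 for Pdpn, and the 4 differences between the induced groups lie below 0 without a call.

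With all 12 libraries in 1 fit, the mean levels of the 4 genes had the order juvenile, adult, c-Myc, c-Myc + R172H, and the steps that passed differed by gene. Between juvenile and adult cells, only Dmp1 passed (adjusted p = 0.0105), where 8.41% of 13005 genes did in either direction. Between adult and c-Myc cells, 3 of the 4 passed, where 50.1% of genes did: Dmp1 (0.85 on the log2 scale, SE 0.27, adjusted p = 0.0166), Phex (1.19, SE 0.36, adjusted p = 0.0182) and Pdpn (2.69, SE 0.45, adjusted p = 7.86e-05). Mepe did not (adjusted p = 0.126). Between the induced groups none of the 4 passed, where 0.169% of genes did.

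Ratios taken within a library do not depend on the scaling, and they separated Pdpn from Dmp1 and Phex. For each 1000 Phex counts there were 1373 ± 202 Dmp1 counts in the juvenile, 1279 ± 775 in the adult, 1398 ± 556 in the c-Myc and 1376 ± 16.1 in the c-Myc + R172H libraries (mean ± SD), so the balance of Dmp1 and Phex differed between induced and juvenile cells by less than the spread between replicates. For Pdpn the same ratio was 49.4 ± 29.8 counts in the juvenile and 60.2 ± 23.1 in the adult libraries, 18.4 and 20.2 in the c-Myc and 7.61 and 8.70 in the c-Myc + R172H libraries. The c-Myc values overlapped the juvenile range, which began at 18.2, and the c-Myc + R172H values did not. As a share of the 6 genes' counts, Dmp1 made up 55.3% in juvenile and 56.5% in c-Myc + R172H cells, Phex 40.6% and 41.0%, and Pdpn 1.99% and 0.335%. The difference in response between Pdpn and the other genes has no test.

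Set against other genes of the osteoblast lineage, the direction of the members depended on the reference. Col1a1, the main collagen chain of bone, fell more than Dmp1 and Phex did. Only the induced mice carried the c-Myc transgene as a knock-in at Col1a1, and any effect of it on Col1a1 counts was not tested. Phex was at 0.372–0.568 counts per 1000 Col1a1 counts in the juvenile and 0.381–0.487 in the adult libraries, at 0.767 and 0.872 in the c-Myc and at 0.895 and 1.05 in the c-Myc + R172H libraries, so the induced libraries were above both ages. Dmp1 was at 0.771 and 1.56 in the c-Myc and 1.24 and 1.44 in the c-Myc + R172H libraries, above the juvenile range of 0.544–0.710. Pdpn was at 0.00988–0.0327 in the juvenile libraries, at 0.0155 and 0.0160 in the c-Myc libraries, inside that range, and at 0.00778 and 0.00802 in the c-Myc + R172H libraries, below it. Per 1000 counts of Ibsp, the bone sialoprotein gene that lies between Dmp1 and Mepe, Dmp1 averaged 132 in juvenile, 131 in c-Myc and 109 in c-Myc + R172H cells, within the juvenile range of 64.7–211. Per 1000 counts of Runx2, the osteoblast transcription factor, Dmp1 fell below its juvenile range of 841–1795 in all 4 induced libraries, at 465 and 747 with c-Myc and 298 and 376 with c-Myc + R172H. In the induced cells, Dmp1 thus fell about as far as Ibsp, farther than Runx2 and less far than Col1a1. Pdpn per 1000 Ibsp counts was 2.94–4.17 in the juvenile, 1.74 and 1.87 in the c-Myc and 0.629 and 0.651 in the c-Myc + R172H libraries. Per 1000 Runx2 counts Pdpn was at 24.9–62.4, 7.67 and 9.33, and 1.87 and 2.10, so both references put all 4 induced libraries below the juvenile range. Mepe per 1000 Col1a1 counts was 0.00722–0.0305 in the juvenile, 0.0516 and 0.0600 in the c-Myc and 0.0233 and 0.0762 in the c-Myc + R172H libraries.

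**Figure D3:**
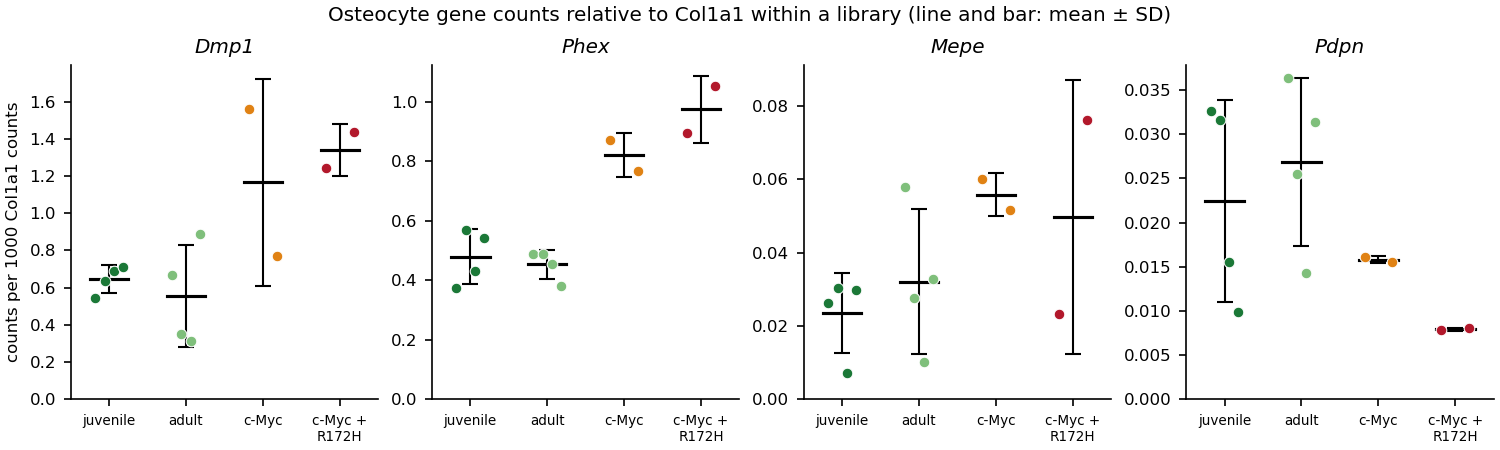
Counts of 4 osteocyte genes per 1000 Col1a1 counts of the same library, by group, on linear axes from 0. Points are libraries, lines and bars the mean ± SD. Phex in the 4 induced libraries (0.767–1.05) stands above all juvenile and adult libraries (at most 0.568), whereas Pdpn in the c-Myc + R172H libraries (0.00778 and 0.00802) stands below all of them.

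Of the other SIBLING genes of the chromosome 5 cluster, Spp1 was called with Dmp1 in each of the 3 comparisons in which Dmp1 was called, and Ibsp and Mepe in the 2 of induced against juvenile cells. Spp1 (osteopontin) was higher in juvenile than in adult cells (3676 against 1562 CPM, log2 fold change 1.23, SE 0.16, adjusted p = 0.000662), as Dmp1 was, and Ibsp had a difference of 0.61 that did not pass (SE 0.21, adjusted p = 0.0966). Over all genes, 1.89% were called higher and 3.23% lower in juvenile cells. With c-Myc, all 4 detected genes of the cluster were called lower than in juvenile cells, beside 16% of all genes lower and 18.4% higher. Dmp1 and Mepe among them are the members already described. Spp1 was lower by −2.55 on the log2 scale (SE 0.20, adjusted p = 4.63e-07) and Ibsp by −2.04 (SE 0.23, adjusted p = 1.47e-05). With c-Myc + R172H all 4 were called lower too, Spp1 by −3.04 and Ibsp by −2.59, beside 17.9% of all genes lower and 19.6% higher. With library totals alone, Spp1 and Ibsp were still called lower with c-Myc, at −1.74 and −1.24, beside 5.56% of all genes lower and 41.6% higher. Dspp, the dentin member at the start of the cluster, had 0 counts in every library and was not tested.

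Partners of the members were read from lists of known pathway genes, and the values that follow are log2 fold changes whose calls come from the edgeR fit. Of the FGF23 and phosphate genes, 13 of 14 were tested, Kl (Klotho, the FGF23 co-receptor) falling under the filter. In c-Myc against juvenile cells 9 of the 13 were called lower and 1 higher, with a median log2 fold change of −1.21, where 16% of all genes tested were lower and 18.4% higher. The largest falls were in Pcsk5, a proprotein convertase (−2.39, SE 0.17), Galnt3, which glycosylates FGF23 and protects it from cleavage (−1.91, SE 0.18), and the receptors Fgfr2 (−1.86, SE 0.21) and Fgfr1 (−1.82, SE 0.11). Slc20a1, a sodium-phosphate cotransporter, was the 1 gene that rose (1.53, SE 0.15), and it is named for that reason after its value was seen. With c-Myc + R172H the counts were 9 lower and 1 higher as well, beside 17.9% of all genes lower and 19.6% higher. The counts of this list depended on the scaling, and with library totals alone 3 of the 13 were called lower and 1 higher with c-Myc, with a median of −0.37, where 5.56% of all genes were lower and 41.6% higher. The same scaling gave 3 lower and 1 higher with c-Myc + R172H, with a median of −0.30, where 6.9% of all genes were lower and 49.8% higher. Between the ages, Vdr, the vitamin D receptor gene, was the 1 gene of this list called, higher in juvenile cells (0.56, SE 0.15, adjusted p = 0.0452), beside 1.89% of all genes higher and 3.23% lower. Under scaling by library totals, none of the list was higher in juvenile cells. The cotransporter genes Slc20a1 (−0.91, adjusted p = 0.0238) and Slc20a2 (−0.81, adjusted p = 0.00387) were lower, beside 0.467% of all genes higher and 6.99% lower. Slc20a2 is named after its value was seen.

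Of the sclerostin and Wnt genes, 10 of 12 were tested. In c-Myc against juvenile cells 6 were called lower and none higher (median −1.11), beside the same 16% and 18.4% over all genes, led by Dkk3, a secreted Dickkopf-family protein (−3.31, SE 0.27), the transcription factor Lef1 (−3.25, SE 0.40), the secreted Frizzled-related Sfrp4 (−2.40, SE 0.29) and the Wnt target Axin2 (−1.84, SE 0.28). With library totals alone, 4 were called lower and 1, Tcf7, higher with c-Myc (median −0.28), beside 5.56% of all genes lower and 41.6% higher. Dkk3 was also the single gene of the partner lists called between the induced groups (−1.83, SE 0.35, adjusted p = 0.045), beside 0.461% of all genes called lower. That call was lost with library totals (−1.62, adjusted p = 0.142) and with upper-quartile normalization. Among the cell type markers, 1 of 6 osteoblast and 1 of 4 marrow stromal markers were called lower in this comparison too. Tcf7, a Wnt-responsive transcription factor, was higher in juvenile than in adult cells (0.96, SE 0.20, adjusted p = 0.0125). Sost itself was not measurable. Of 10 regulators of Sost, 3 were called higher in juvenile than adult cells and none lower, beside 1.89% and 3.23% of all genes. They were Irx5 at 1.06 (SE 0.24, adjusted p = 0.0224), the histone deacetylase Hdac5 at 0.64 (SE 0.14, adjusted p = 0.0166) and Sp7, the Osx gene, at 0.43 (SE 0.12, adjusted p = 0.05, just inside the threshold). With c-Myc, 1 of the 10 was called lower, the parathyroid hormone receptor Pth1r (−1.08, SE 0.08), a share below the 16% over all genes. With library totals alone, none of these 10 was called in either comparison, and their median with c-Myc turned from −0.65 to 0.18. Over all genes, this scaling called 0.467% higher and 6.99% lower between the ages, and 41.6% higher and 5.56% lower with c-Myc.

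The calls among the partners of podoplanin were near the share over all genes. Of 7 tested, 1 was called lower with c-Myc, the tetraspanin Cd9 (−1.59, SE 0.21), and 1 higher, Ezr (1.52, SE 0.19), which encodes the ezrin that anchors podoplanin to actin, beside 16% of all genes lower and 18.4% higher. Their median was −0.42, beside −3.11 for Pdpn itself. With library totals alone 3 were called higher and none lower, beside 41.6% and 5.56% of all genes, at a median of 0.42, against −2.31 for Pdpn. Clec1b, the platelet receptor of podoplanin, fell under the filter. Among 12 other genes enriched in osteocytes, 7 were called lower and none higher with c-Myc (median −1.50), beside 16% and 18.4% of all genes, with the largest falls in Tnfrsf11b, the decoy receptor osteoprotegerin (−2.65, SE 0.35), the protease inhibitor Timp1 (−2.10, SE 0.16), the procollagen C-proteinase Bmp1 (−1.99, SE 0.10) and the membrane metalloproteinase Mmp14 (−1.87, SE 0.10). With library totals alone, 4 of the 12 were called lower and 1 higher (median −0.67), beside 5.56% and 41.6% of all genes. Bmp1 was the 1 gene of this list called between the ages, higher in juvenile cells by 0.58 (SE 0.14, adjusted p = 0.0264), beside 1.89% of all genes higher and 3.23% lower. With library totals alone, Vdr, Irx5, Hdac5 and Bmp1 lost their calls between the ages (adjusted p = 0.223, 0.0666, 0.12 and 0.159), and Spp1 and Tcf7 remained called (0.00303 and 0.0307).

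**Figure D4:**
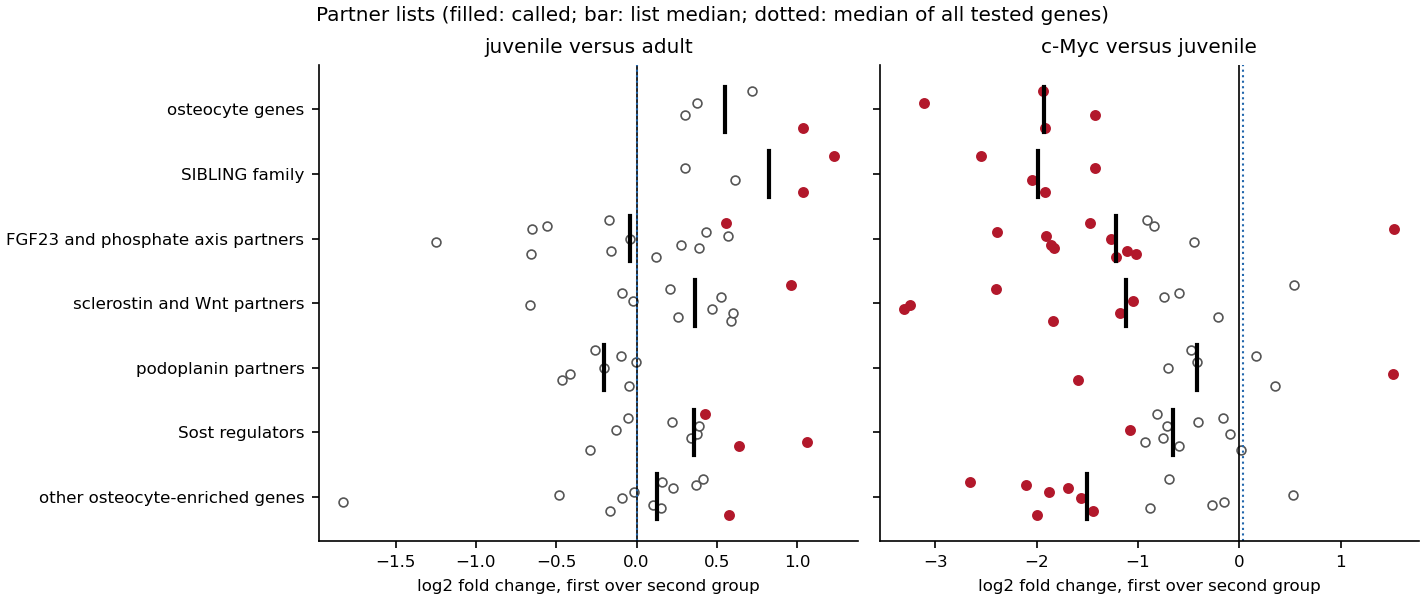
Log2 fold changes (x axis, first named group over second) of the osteocyte genes and of 6 partner lists (y axis) for juvenile versus adult and c-Myc versus juvenile cells. Each point is a tested gene, filled where called; black bars are list medians and the dotted line the median of all genes tested. In c-Myc versus juvenile cells the medians run from −0.42 for the podoplanin partners to −1.98 for the SIBLING family, with Ezr and Slc20a1 to the right of 0 as the called exceptions.

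The members followed similar patterns over the 12 libraries, with Pearson correlations of log2(CPM + 1) from 0.732 (Dmp1 and Mepe) to 0.888 (Dmp1 and Phex). The points share libraries and groups, and with the group means removed the same correlations ran from −0.433 (Dmp1 and Pdpn) to 0.297 (Mepe and Pdpn), with 0.0359 for Dmp1 and Phex. The pattern that the members shared thus lay in the order of the group means. With 4 or 2 libraries a group the values within groups are imprecise, and shared variation between replicates was not tested. Among 13005 genes, the pattern most like that of Dmp1 was that of Ppp1r18 (r = 0.971), followed by BC043934, Nrbp1, Neurl1a and Nod1. Mepe was most like Enho (r = 0.925), then Slc25a45, Col25a1, Pcdhb8 and Tusc1, and its highest likeness was the lowest of the 4 members. Phex was most like Ptgis, the prostacyclin synthase gene (r = 0.983), then Sec16a, Abca1, Lratd1 and Col5a2. Pdpn was most like Parva, which encodes a focal adhesion protein (r = 0.975), then Cdc42ep3, Jak1, Mfap2 and Mmp13, the collagenase of hypertrophic cartilage and late osteoblasts.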

How the data were processed

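The deposited counts are whole-number reads per gene, made by the authors from 86-base single-end reads of a directional library kit with bcl2fastq 2.20, cutadapt 4.6, STAR 2.7.11a on mm10 and HTSeq 2.0.5 on GENCODE genes, keeping uniquely mapped reads; the strand setting of the counting is not given in the sources used here. All 12 libraries were used as labelled. Juvenile and adult libraries are separate pools of mice. The number of mice behind an induced library is not given in the sources used here, and the 2 libraries of each induced group differ in Xist; p-values measure the spread between libraries. Counts were tested with edgeR 4.0.16 in R 4.3.3 (TMM, expression filter, robust quasi-likelihood fit, Benjamini-Hochberg adjusted p below 0.05 over all genes tested). Juvenile and adult libraries had a fit of their own, and a second fit held the induced and juvenile libraries; calls of induced against juvenile cells also needed a change of 1 or more on the log2 scale. Fold changes come from these fits, and CPM from TMM over all 12 libraries. DESeq2 1.42.0, which the authors used, was an alternative, beside other scaling, filters, sample sets, the replicate number as a block, and each library left out. The scripts were tested on simulated data. Exon lengths and positions came from a GENCODE annotation of GRCm38 that matched 99.6% of gene IDs, and promoter sequences from RefSeq (GRCm38.p6), which held all 6 genes. The members, partner lists and tests were chosen with earlier results of these data known. All 6 genes were named, with up to 4 called genes per list and comparison by the size of the change (mean of at least 1 CPM in a group), all SIBLING genes, and the 5 genes most like each member.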

Additional observations from a re-analysis of the deposited data

Results flagged for a closer look

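Sost in adult replicate 2, at 0.564 CPM from 5 counts, stood apart from the other 3 adult libraries, which had 0 counts, by more than Dixon's criterion for 4 values allows. Of 10 groups of 4 libraries checked, this was the 1 that met the criterion. With the other 3 values at 0, any count above 0 meets it, so the flag says nothing about the size of the value. With 5 counts the level lies near the limit of detection, and the cause was not tested.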

How the results depend on the processing

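Of 291 alternative values of the 4 tested genes, 276 kept their direction and their side of the threshold, 9 lost a call, 6 gained one and 0 changed direction. The higher Dmp1 in juvenile than adult cells was called in 17 of 17 alternatives, with log2 fold changes of 0.74 to 1.20 and adjusted p from 1.69e-05 to 0.0402. The number of members called lower in c-Myc + R172H than in c-Myc cells was 0 and became 2 with no filter on low counts, 2 with only the 2 groups fitted, and 2 with the replicate block. These settings called 1.09%, 3.62% and 2.35% of all genes lower, beside 0.461% in the main fit. The SE of Phex under them fell from 0.26 to 0.15, 0.11 and 0.12, and the cause was not tested. When single libraries were left out, 0 members were called in that comparison, and the log2 fold change ranged from −1.07 to −0.48 for Dmp1 and from −2.22 to −1.84 for Pdpn. Mepe in c-Myc against juvenile cells also lost its call with all 12 libraries fitted (adjusted p = 0.0566) and with both Xist-rich libraries left out, an alternative chosen after seeing the data (adjusted p = 0.0956).

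The replicate numbers are those of the sample titles, which are shared between groups, and no label says what they stand for. The library names of the adult group carry other numbers than its titles. Juvenile and adult libraries with the same replicate number therefore do not share a number in their library names. The correlations of same-numbered deviations from the group means were −0.0793 to 0.0535 between juvenile and adult libraries, which the numbers did not pair. Between the induced groups the correlation was 0.174, a single value with 2 libraries a group, and replicate 2 was the Xist-rich library in both, so whether the numbers pair these libraries is not settled. The replicate block gave Phex an adjusted p of 0.00393 and Pdpn 0.0312 between the induced groups, and took away the call of Dmp1 in c-Myc against juvenile cells (−1.57, adjusted p = 0.0527); over all genes it moved the number called lower in c-Myc + R172H than in c-Myc from 58 to 296. It changed no other call of the members.

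Scaling by library totals moved the median log2 fold change over all genes to −0.24 for the ages, 0.87 for c-Myc and 1.12 for c-Myc + R172H against juvenile cells, and the calls to 53 higher and 793 lower, 5234 and 700, and 6264 and 868. The members' values under it stand beside their results. A minimum of 10 counts in every library left Pdpn out of the fits with induced libraries. Depth limits Sost and Fgf23 in all groups and Pdpn in c-Myc + R172H cells, where 6 counts stand behind each value; 2 libraries a group limit the induced comparisons.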
